A study of Homo sapiens with 32 samples.

Results

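The comparison described here is between the RKO cells that were labeled most and least in a pooled CRISPR-knockout screen, read across every gene of the library. RKO, the host of the screen, is a long-established line of human colon cancer. The cells carried Cas9 and Kinprola_PKA, a recorder of protein kinase A (PKA) activity, by lentiviral integration under blasticidin selection, and EGFP-positive cells were kept as a sorted pool, so that all groups share this background. The members were the libraries of the high and low populations of the screens that the sample labels number as replicates 2 and 3, that is 4 of 8 libraries, or 16 of 32 sequenced lane samples. The high and low populations were the upper and lower 25% or so of cells by the ratio of CPY-CA to EGFP fluorescence after 30 min of labeling, around day 6 after transduction. The remaining libraries were the medium population (called basal in the labels) and day 0 cells (T0), and they enter only where stated.

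PKA is held inactive by its regulatory subunits until cyclic AMP binds them and frees the catalytic subunits. Kinprola_PKA is a split-HaloTag protein that takes up a fluorescent substrate such as CPY-CA while PKA is active, and its fused EGFP reports how much recorder a cell contains. Sequencing the sgRNA cassette from genomic DNA of a sorted population counts the cells with each knockout there, so that a gene higher in the high population is one whose loss was found more often among strongly labeled cells. The gate was set on a ratio, and reads cannot tell a change in CPY-CA from a change in EGFP.

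The 4 libraries held 23369720 to 31774397 reads, with medians of 260 to 352 reads per sgRNA. There were 74552 sgRNAs against 18638 genes, and each gene had 4. Values below are scaled reads, that is counts scaled to the mean library total and summed over the 4 sgRNAs of a gene, and the log2 fold change of high over low, which was computed per sgRNA and screen with 1 read added and then averaged. limma tested the mean of the 2 screens against 0 for every gene, and a gene was called at a Benjamini-Hochberg adjusted p under 0.05. The spread that limma uses for a gene borrows from all genes, with 10.2 prior degrees of freedom. Each SE below is moderated in this way and is not that of the 2 screens alone. The p-values of this test rest on it. Of the 18638 genes, 979 (5.25%) were called higher and 508 (2.73%) lower in the high population, together 7.98%, with a median log2 fold change over all genes of −0.01. The study took core-essential genes of RKO out of its list of hits. That filter was not applied here, so that these counts include such genes and are not comparable with those of the study. The sgRNAs without a target had a mean of −0.11, and centring on them gave 1273 higher and 281 lower. The largest changes were on the higher side, with 399 called genes at a log2 of 1 or more against 103 at −1 or less. Each library was also left out in turn from a limma fit of the 6 sorted libraries, which with all of them called 829 genes higher and 383 lower. With all libraries this fit did not call CUL4A, EIF1AX, EP400, ETF1, KAT8, PDE4A, PPP1R2, PRKAR2A, RPLP2, SETD1A, UBA1, UFD1, VBP1 or YEATS4. These genes are described below by the main test, which did call them. Counts and p-values of the 6-library fit come from it, and are to be set against its own count with all libraries. Without the low library of screen 2 it called 506 and 136, and without that of screen 3 it called 496 and 161. Without the high library of screen 2 or 3 it called 661 and 258 or 671 and 301. Of the 197 called genes named below, 14 were not called by this fit with all libraries and 83 were not called without at least 1 of the 4, and all 197 kept their sign. The 83 were 70 of the 82 genes under a log2 of 1 and 13 of the 115 beyond it, namely DDX56, RPL3, EIF2S1, PIK3CA, SEC61A1, SNAPC4, PSMB5, YTHDC1, EIF3D, PPP6C, PSMA4, SARS1 and RPS27.

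**Figure D1:**
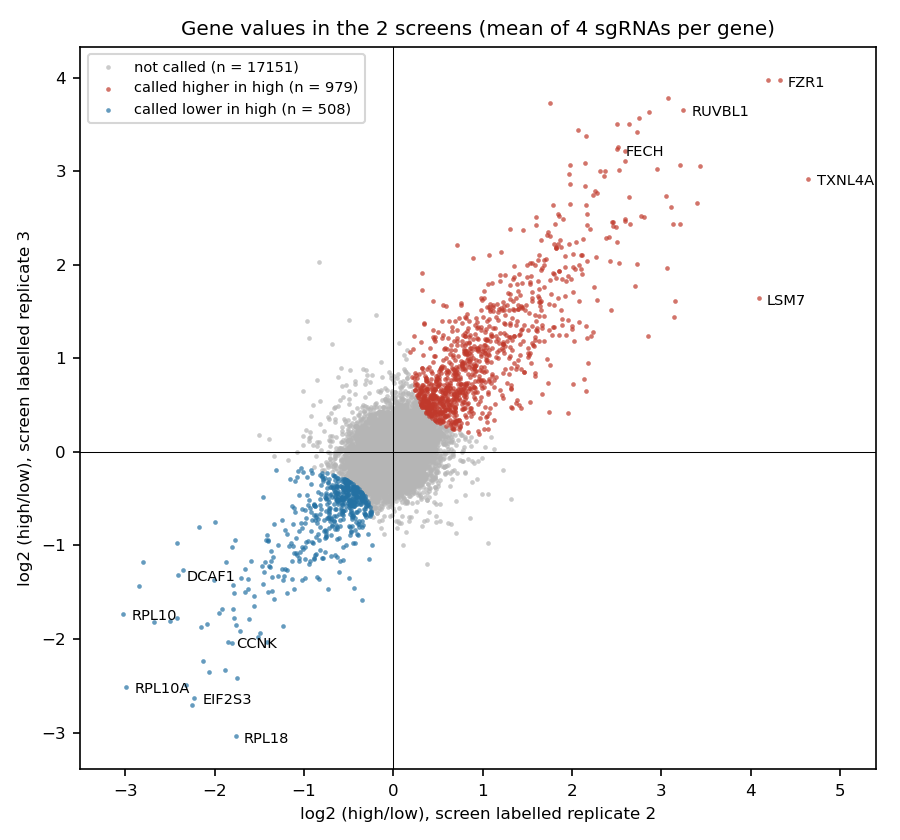
Log2 fold change of high over low for each of the 18638 genes in the screen labelled replicate 2 (x axis) and in the screen labelled replicate 3 (y axis), each point being the mean of 4 sgRNAs. The 979 genes called higher (red) and 508 called lower (blue) lie along the diagonal, and the positive arm reaches further (FZR1, 4.15) than the negative one (RPL10A, −2.75).

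To describe classes of genes, 116 lists of complexes and pathways were read as counts of members called in each direction, to be set against the 5.25% and 2.73% of all genes. The lists, controls left out, held 2182 genes, or 11.7% of those tested, and 54.3% of the called genes. They were written with earlier results of these data known, so that these shares describe the lists and are no test of them. Members were called only higher in 49 lists, only lower in 16 and in both directions in 47, and 4 lists had no call. As control lists, 339 olfactory receptor genes had 2 calls higher and 1 lower with a median of −0.02, and 31 keratin-associated protein genes had 1 higher and 0 lower.

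**Figure D2:**
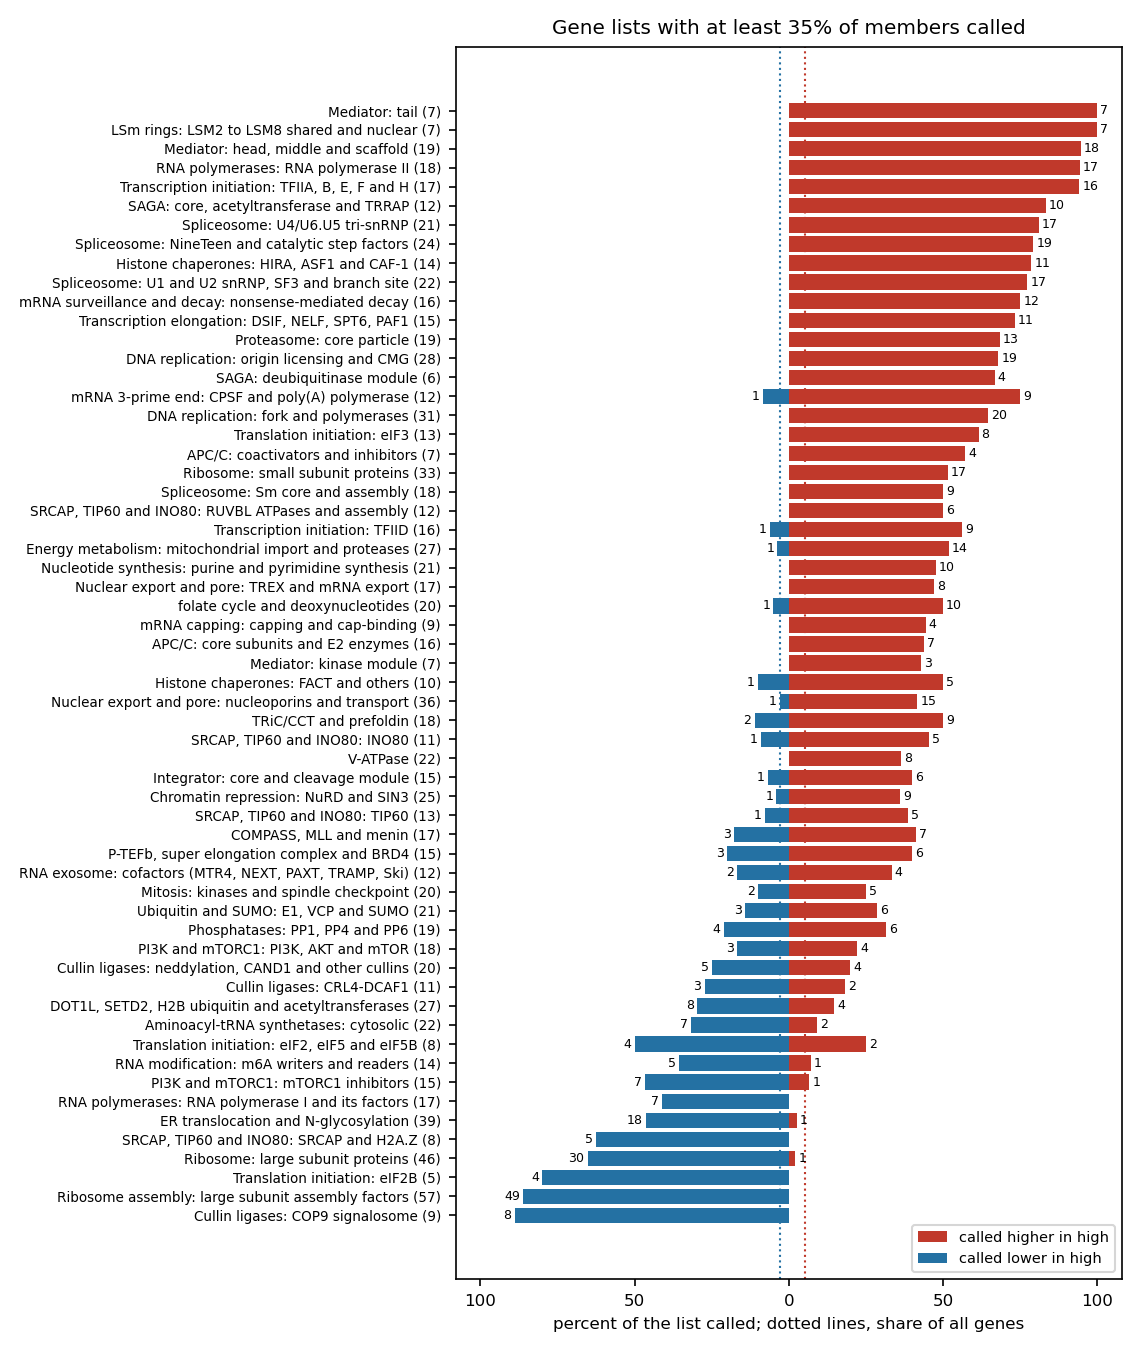
Percent of the members of a list that were called higher (red, to the right) or lower (blue, to the left) in the high population, for the lists with at least 35% of members called; the number of members tested is in parentheses, the number called stands at the bar, and dotted lines mark the 5.25% and 2.73% of all genes. Transcription, splicing and replication lists lie at the top with calls almost solely to the right, and large ribosomal subunit and COP9 lists at the bottom with calls to the left.

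The ribosome split between its subunits. Of 46 large subunit proteins, 30 were lower and 1 was higher, with a median of −0.99, whereas of 33 small subunit proteins 17 were higher and 0 lower, with a median of 0.48. RPL3, a core protein of the large subunit, had 165 and 72 scaled reads in the high libraries of screens 2 and 3 and 546 and 404 in the low libraries. The groups did not overlap, which here and below is a weak criterion with 2 libraries on each side. The log2 fold change of RPL3 was −2.08 ± 0.15 (moderated SE, n = 2 screens, limma adjusted p = 1.9e-06), and all 4 of its sgRNAs passed the sgRNA test on their own. RPL3 was not called by the 6-library fit without the low library of screen 2 or 3 (limma adjusted p = 0.120 and 0.0967). RPL10A had the lowest value of any gene, with 57 and 69 scaled reads in high against 257 and 169 in low. Its log2 fold change was −2.75 ± 0.13 (limma adjusted p = 1.5e-07), and 2 of its 4 sgRNAs passed alone. On the other side RPS7 had 264 and 179 scaled reads in high and 90 and 81 in low, a log2 fold change of 1.79 ± 0.13 (limma adjusted p = 2.3e-06). RPS14 followed at 1.73 and RPS6, the substrate of S6 kinase, at 0.83. The single large subunit protein on the other side was RPLP2 of the stalk, at 0.54 ± 0.14 (limma adjusted p = 0.031), which the 6-library fit did not call (limma adjusted p = 0.0965).

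Counted by sgRNA with edgeR, 36 of 170 tested sgRNAs of the large subunit were lower and 1 higher, and 0 of 119 of the small subunit were lower and 10 higher, where 2.95% of all tested sgRNAs passed as higher and 1.55% as lower. Both subunits of the ribosome lost sgRNAs from the culture, with median log2 changes since T0 of −2.05 (large) and −1.74 (small) in the pooled sorted cells. A role of this loss in the directions was not tested. The sgRNAs of both subunits had few reads, with medians of 60 and 79 per sgRNA against 354 over all genes. In the 6-library fit the large subunit had 26 lower and 0 higher with all libraries, and 14 lower and 1 higher without the low library of screen 2. The small subunit had 11 higher and 0 lower with all libraries, 6 and 0 without the low library of screen 2, and 4 and 1 without that of screen 3. The medians kept their sign, at −0.90 for the large subunit without the low library of screen 2 and 0.42 for the small without that of screen 3.

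The factors that build the subunits did not mirror one another. Of 57 large subunit assembly factors, which process and fold the large ribosomal RNA, 49 were lower and 0 higher, with a median of −1.17, and 146 of their 228 tested sgRNAs were lower. DDX56, a nucleolar helicase, had 185 and 145 scaled reads in high and 959 and 661 in low, a log2 fold change of −2.48 ± 0.13 (limma adjusted p = 2.4e-07), and without the low library of screen 2 it was not called by the 6-library fit (limma adjusted p = 0.0608). FTSJ3, an RNA methyltransferase, followed at −2.40, ISG20L2, a ribosomal RNA exonuclease, at −2.20, WDR74 at −2.15, BRIX1 at −1.96 and WDR12 at −1.84. All 4 sgRNAs of each of these genes passed as lower. Of 64 small subunit assembly factors 1 was higher and 3 were lower, at a median of −0.03. The median log2 changes since T0 were −0.65 for small and −0.80 for large subunit factors, and a role of this loss was not tested. The small subunit factor on the higher side was SNU13, with 1184 and 1001 scaled reads in high and 478 and 393 in low, which is also a protein of the spliceosomal U4 snRNP. RNA polymerase I, which makes the large ribosomal RNAs, had 7 of 17 members lower and 0 higher, with POLR1C at −0.88 as its lowest value. The 6-library fit called 5 of the 17 lower with all libraries and 0 without the low library of screen 2, at medians of −0.25 and −0.33. The mitochondrial ribosome had 1 call higher in each of its subunits, of 47 and 30 proteins, and 0 lower.

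Translation initiation divided along its steps. eIF2 brings the initiator tRNA to the ribosome, eIF5 triggers its GTP hydrolysis and eIF5B joins the subunits. EIF2S3 had 168 and 102 scaled reads in high and 601 and 415 in low, with a log2 fold change of −2.43 ± 0.12 (limma adjusted p = 2.4e-07). EIF5B was at −2.25, EIF5 at −2.10 and EIF2S1 at −2.02, each lower in both screens with no overlap of the reads. EIF2S1 was not called by the 6-library fit without the low library of screen 2 (limma adjusted p = 0.0568). The last eIF2 subunit, EIF2S2, was at −1.33 in screen 2 and −0.05 in screen 3 and was not called (limma adjusted p = 0.095). EIF1 and EIF1AX, which scan for the start codon and hold back eIF5, were on the opposite side of the same list. EIF1 had 450 and 446 scaled reads in high and 170 and 162 in low, a log2 fold change of 1.57 ± 0.11 (limma adjusted p = 2.4e-06), and EIF1AX was at 0.55. The 6-library fit with all libraries did not call EIF1AX (limma adjusted p = 0.0698). eIF2B, the exchange factor of eIF2, was lower in 4 of 5 subunits, from EIF2B5 at −0.84 to EIF2B3 at −0.40, while EIF2B1, its regulatory subunit, was at 0.03.

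eIF3, the scaffold of the initiation complex on the small subunit, went the other way, with 8 of 13 subunits higher, 0 lower and a median of 0.46. EIF3D had 608 and 627 scaled reads in high and 239 and 261 in low (log2 fold change of 1.16 ± 0.12, limma adjusted p = 3.1e-05), and EIF3F was at 1.12. The 6-library fit called 7 of 13 higher with all libraries, 3 without the low library of screen 2 and 4 without that of screen 3, at medians of 0.46, 0.50 and 0.45, and EIF3D was not among the 3 (limma adjusted p = 0.111). Of 15 eIF4F and cap-binding factors, 5 were higher and 0 lower, led by EIF4G2 at 1.92. The 6-library fit called 4 of these with all libraries, 2 without the low library of screen 2 and 1 without that of screen 3. At the end of the cycle the release factor ETF1 was lower at −0.72, whereas ABCE1, which splits the subunits for reuse, was higher at 3.01 ± 0.18 (limma adjusted p = 6.9e-07). ETF1 was not called by the 6-library fit with all libraries (limma adjusted p = 0.0642). The kinase EIF2AK4 (GCN2), which phosphorylates eIF2 on amino acid shortage, and its activator GCN1 were higher at 2.40 and 1.78 with all 4 sgRNAs passing, and the other 6 sensors and activators were not called. Downstream of them the stress-induced SESN2 and DDIT3 were lower at −0.65 and −0.52, and ATF4 was at −0.41 (limma adjusted p = 0.070).

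The cytosolic tRNA synthetases, which charge tRNAs with amino acids, also split. Of 22, 7 were lower and 2 higher, and in the 6-library fit it was 6 and 2 with all libraries and 3 and 3 without the low library of screen 2. QARS1, for glutamine, had 295 and 287 scaled reads in high and 1018 and 683 in low (log2 fold change of −1.53 ± 0.12, limma adjusted p = 4.7e-06), and CARS1, for cysteine, was at −1.15 with 4 of 4 sgRNAs passing. GARS1, for glycine, was the reverse, with 1455 and 1754 in high and 834 and 698 in low (1.02 ± 0.13, limma adjusted p = 0.00019), and SARS1, for serine, was at 1.01. None of the 18 mitochondrial synthetases was called by limma, and 0 of their 71 tested sgRNAs passed in edgeR.

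**Figure D3:**
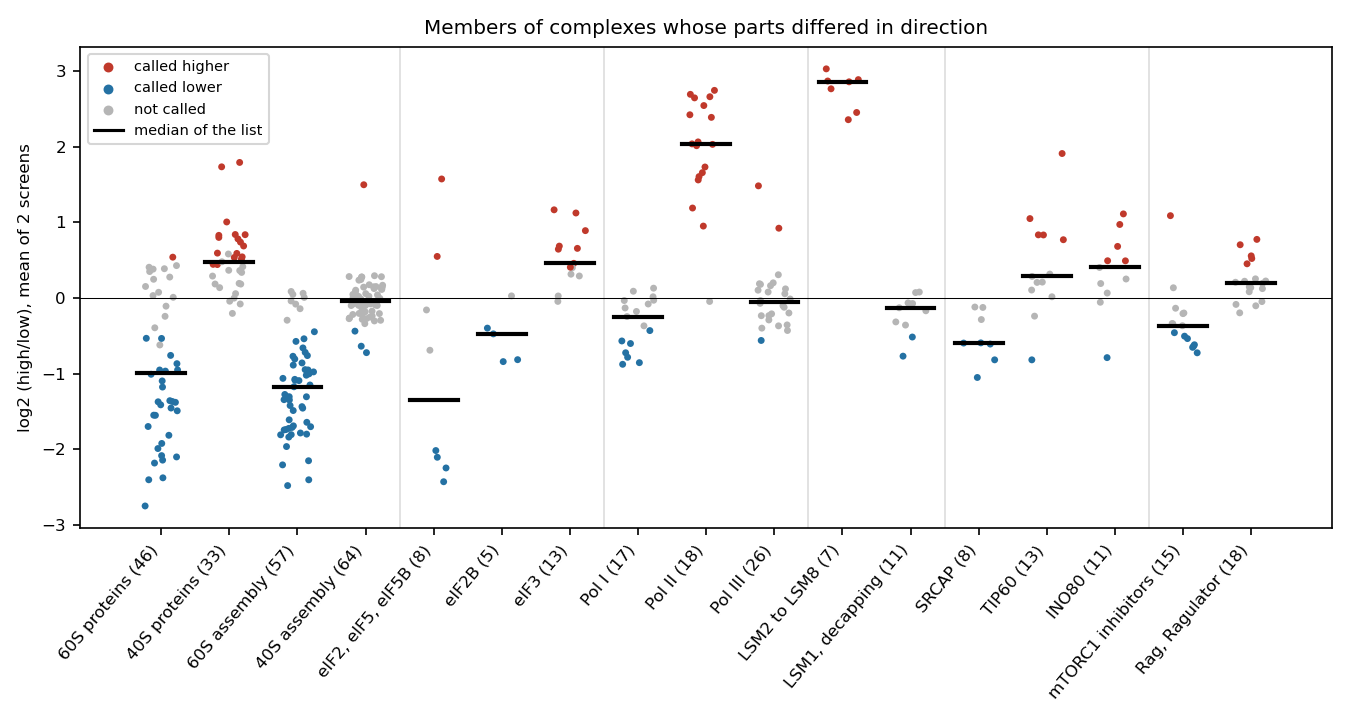
Log2 fold change of high over low (y axis, mean of 2 screens) for every tested member of 17 lists, each point being a gene (red, called higher; blue, called lower; gray, not called) and each black line the median of the list. Large subunit proteins and assembly factors, eIF2 and eIF5 factors, eIF2B, RNA polymerase I and SRCAP lie mostly below 0, and their partners, small subunit proteins, eIF3, RNA polymerase II, TIP60 and INO80, mostly above.

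Genes of transcription by RNA polymerase II were called almost solely as higher. Of 18 polymerase II subunits and assembly factors 17 were higher and 0 lower, with a median of 2.03, which stood 2.28 above that of polymerase I. The list holds subunits that polymerases I and III share, some of them among its largest called values, so that the lists do not fully separate these enzymes. The median reads per sgRNA were 69 for polymerase II, 226 for polymerase I and 354 over all genes. The median log2 changes since T0 were −1.73 for polymerase II and −0.51 for polymerase I, and a role of reads or of this loss was not tested. Polymerase III, which makes tRNAs, had 2 of 26 higher and 1 lower, and the 2 were SNAPC4 and SNAPC2 of the complex that serves small nuclear RNA genes. The general factors TFIIA, B, E, F and H had 16 of 17 higher (GTF2B, 2.91) and TFIID 9 of 16, and the one TFIID call on the other side was the TATA-binding protein TBP, at −0.72 ± 0.12 (limma adjusted p = 0.0016), and not called by the 6-library fit without the low library of screen 2 (limma adjusted p = 0.103). TBP also serves polymerases I and III. In the 6-library fit the general factors had 16 higher with all libraries, 10 without the low library of screen 2 and 8 without that of screen 3, and the Mediator tail, described next, had 6 with all libraries and 3 without the low library of screen 3. Mediator, which links activators to the polymerase, was graded by module: 18 of 19 head, middle and scaffold subunits were higher at a median of 1.85, all 7 tail subunits at a median of 0.95, and 3 of 7 kinase module subunits at a median of 0.25. Within the kinase module MED12, CCNC and MED13 were higher (1.49, 1.01 and 0.93), while the paralogous kinases CDK8 and CDK19 were at 0.00 and −0.09. SAGA, an acetyltransferase coactivator, had 10 of 12 core members higher (SGF29, 2.62; TADA1, 2.52) and 4 of 6 of the deubiquitinase module. The 2 core members not called were SUPT3H at 0.00 and KAT2B at −0.09, while its paralog KAT2A was higher at 1.19 with 4 of 4 sgRNAs passing.

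Elongation factors were less uniform. P-TEFb releases paused polymerase, and its kinase CDK9 was higher, with 1355 and 1379 scaled reads in high and 477 and 513 in low (1.54 ± 0.11, limma adjusted p = 2.4e-06), together with its cyclin CCNT1 at 0.71 and ELL at 2.00. The P-TEFb inhibitor HEXIM1 was lower at −0.80, but MEPCE, which caps the RNA of the same inhibitory particle, was higher at 1.62. CCNK, the cyclin of CDK12 and CDK13, had 178 and 105 scaled reads in high and 456 and 391 in low, a log2 fold change of −1.94 ± 0.11 (limma adjusted p = 4.3e-07). CDK13 was lower at −0.54, and CDK12, named here after its value was seen, was at −0.02. DSIF, NELF, SPT6 and PAF1 complex genes were higher in 11 of 15 and lower in 0. The 6-library fit also called 11 higher with all libraries, 6 without the low library of either screen and 7 without the high library of either screen.

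Splicing and RNA surveillance followed polymerase II. The 4 spliceosome lists were called higher in 9 of 18, 17 of 22, 17 of 21 and 19 of 24 members and lower in 0, with TXNL4A (3.78), SART3 (3.08), DDX23 (2.78), U2AF1 (2.66) and SNRPG (2.52) among the largest values. The 6-library fit called 7, 16, 16 and 17 with all libraries and 4, 11, 13 and 12 without the low library of screen 2. The LSm proteins form a nuclear ring on U6 RNA and, with LSM1 in place of LSM8, a cytoplasmic ring for decapping. All 7 of LSM2 to LSM8 were higher, at a median of 2.85, and LSM6 had 737 and 566 scaled reads in high and 83 and 98 in low. The median reads per sgRNA were 60 for these 7 genes, 464 for LSM1 and decapping genes and 354 over all genes. The 7 genes had a median log2 change since T0 of −2.36, and a role of few reads or of this loss was not tested. LSM1 was at 0.07 (limma adjusted p = 0.82), and of the 11 LSM1 and decapping genes 0 were higher and EDC4 and LSM14A were lower, at −0.77 and −0.52. The nonsense-mediated decay list was higher in 12 of 16, including the kinase SMG1 at 2.87 and the helicase UPF1 at 2.33. A pair of its largest values, RUVBL1 at 3.45 and RUVBL2 at 2.46, belong to ATPases that act in many complexes. The catalytic and core subunits of the RNA exosome had 0 calls of 14 in limma and 0 of 56 sgRNAs in edgeR, whereas among its 12 cofactors MTREX (1.64), SKIC8, ZFC3H1 and NRDE2 were higher and ZC3H18 (−0.99) and ZCCHC7 lower.

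The writers of N6-methyladenosine, a mark on mRNA, stood apart from the other mRNA classes. VIRMA had 526 and 335 scaled reads in high and 1217 and 985 in low (−1.35 ± 0.12, limma adjusted p = 1.1e-05), and WTAP, RBM15, ZC3H13 and RBM15B were lower at −1.24, −1.10, −0.81 and −0.52. The catalytic pair METTL3 and METTL14, named here after their values were seen, were both at −0.27 and not called (limma adjusted p = 0.23 and 0.40). The nuclear reader YTHDC1 was on the other side at 1.37 ± 0.22 (moderated SE, limma adjusted p = 0.0015). Its screens differed, at 2.01 in screen 2 and 0.72 in screen 3, and 0 of its 4 sgRNAs passed alone. The 6-library fit did not call it without the low library of screen 2 (limma adjusted p = 0.212). In the cleavage and polyadenylation list, 9 of 12 were higher, led by the endonuclease CPSF3 at 4.08, and FIP1L1 was lower at −0.66. In the 6-library fit this was 8 higher and 1 lower with all libraries and 4 and 0 without the low library of screen 2.

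Chromatin complexes that share subunits differed in direction. SRCAP places the histone variant H2A.Z, and 5 of its 8 genes were lower and 0 higher. ACTR6 had 1275 and 1237 scaled reads in high and 2387 and 2756 in low (−1.05 ± 0.11, limma adjusted p = 6e-05), and VPS72, ZNHIT1, H2AZ1 and YEATS4 ranged from −0.82 to −0.59. SRCAP itself was at −0.29 (limma adjusted p = 0.18). TIP60, an acetyltransferase complex, had 5 of 13 higher, with KAT5 and EP400 both at 0.83. EP400 was not called by the 6-library fit with all libraries (limma adjusted p = 0.118). The 1 lower in the TIP60 list was VPS72, which was counted for SRCAP as well. YEATS4 was counted for SRCAP and not for TIP60, and the counts depend on how such members were placed. INO80 had 5 of 11 higher (YY1, 1.11; INO80, 0.97) and MCRS1 lower at −0.79. The 6-library fit with all libraries called 4 lower for SRCAP and 4 higher each for TIP60 and INO80. Without the low library of screen 3 it called 1 lower for SRCAP and 2 higher each for the others, at medians of −0.53, 0.32 and 0.19, and without that of screen 2 it called 1 lower for SRCAP and 1 higher for INO80.

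The COMPASS and menin list, whose complexes methylate lysine 4 of histone H3, had 7 members higher and 3 lower of 17. MEN1 had 1637 and 1196 scaled reads in high and 429 and 339 in low (2.11 ± 0.11, limma adjusted p = 2.4e-07), and WDR82, RBBP5 and ASH2L were at 2.00, 1.63 and 1.17. WDR5 and HCFC1 were lower, both at −0.94. Of 2 paralogous methyltransferases, SETD1B had 1890 and 1389 scaled reads in high and 572 and 515 in low (1.79 ± 0.11, limma adjusted p = 9.5e-07) and all 4 sgRNAs passing, while SETD1A was lower at −0.45 ± 0.12 (limma adjusted p = 0.043) with 0 sgRNAs passing, and was not called by the 6-library fit (limma adjusted p = 0.0677). The RNF20 and RNF40 ligase of histone H2B was lower (−1.58 and −0.78), and so were 3 KANSL subunits and their acetyltransferase KAT8 (−0.51), while DOT1L, a methyltransferase known to act after H2B ubiquitylation, was higher at 1.39. CREBBP was higher at 1.55 and its paralog EP300, named here after its value was seen, was at −0.14 (limma adjusted p = 0.59). In the repressor list, CHD4 (2.89), MTA2, HDAC1 and other NuRD and SIN3 genes gave 9 of 25 higher, and HDAC3, the deacetylase of another corepressor, was lower at −1.23 with 4 of 4 sgRNAs passing. Of the 27 genes of the list that holds RNF20, 8 were lower and 4 higher. In the 6-library fit 4 were lower and 4 higher with all libraries, and 1 was lower and 3 higher without the low library of either screen. Of 14 genes of the HIRA, ASF1 and CAF-1 histone chaperones 11 were higher and 0 lower (CHAF1B, 1.48; TONSL, 1.33), and the 6-library fit called 9 with all libraries and 5 without the low library of screen 2.

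DNA replication genes were higher in 19 of 28 at the origin (CDC7, 2.35) and 20 of 31 at the fork (PCNA, 2.68) and lower in 0, whereas of 29 checkpoint and damage response genes 2 were higher and 0 lower. The folate and deoxynucleotide list was higher in 10 of 20 and lower in 1. Its 1 lower gene was the cytosolic serine hydroxymethyltransferase SHMT1 at −0.62, while the mitochondrial paralog SHMT2 was at 0.97. The folate list had 8 higher in the 6-library fit with all libraries and 5 without the low library of screen 2. De novo purine and pyrimidine synthesis had 10 of 21 higher and 0 lower, led by GART (2.31), ADSS2 (2.04) and PFAS (1.89), each with 4 of 4 sgRNAs passing. Cohesin and condensin, which shape chromosomes, each had 2 calls lower and 0 higher.

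Ubiquitin pathway genes were called on both sides. CUL1, the scaffold of SCF ligases, had 1574 and 1389 scaled reads in high and 260 and 181 in low (2.77 ± 0.13, limma adjusted p = 1.5e-07), and its adaptor SKP1 was at 1.18. The scaffolds CUL3 and CUL2 were lower at −0.63 and −0.57, and ELOB, the adaptor of CUL2, at −1.06 with 4 of 4 sgRNAs passing. When 1 library was left out, CUL3 ranged from −0.78 to −0.48 and CUL2 from −0.75 to −0.40. In the CRL4 list 2 of 11 genes were higher and 3 lower, at a median of −0.06. The substrate receptor DCAF1 was lower at −1.86 ± 0.19 and CUL4A at −0.40, whereas DDB1 and DCAF7 were higher at 0.63 and 0.93. CUL4A was not called by the 6-library fit with all libraries (limma adjusted p = 0.0677). The COP9 signalosome removes NEDD8 from all of these cullins, and 8 of its 9 genes were lower and 0 higher. GPS1 had 601 and 497 scaled reads in high and 1420 and 1097 in low (−1.30 ± 0.11, limma adjusted p = 8.3e-06), the catalytic COPS5 was at −1.18, and the one not called was COPS7B at −0.03, whose paralog COPS7A was at −0.46. Of the 9, 8 were lower in the 6-library fit with all libraries and 5 without the low library of either screen. Of 21 E1, VCP and SUMO genes 6 were higher and 3 lower, at a median of −0.03. The SUMO enzymes SAE1, UBA2 and SENP6 were higher, from 1.33 to 1.53. The VCP adaptors NPLOC4 and UFD1 and the ubiquitin E1 UBA1 were lower, at −0.70, −0.54 and −0.40. The 6-library fit with all libraries did not call UFD1 or UBA1 (limma adjusted p = 0.0511 and 0.212). Of the proteasome, 13 of 19 core particle genes were higher (PSMB5, 1.45) but 4 of 26 of the regulatory particle, with 1 lower, where the 6-library fit called 1 higher and 1 lower. Core particle sgRNAs had a median of 60 reads and 7 of 74 passed alone as higher and 1 as lower, and the 6-library fit called 11 genes higher with all libraries, 7 without the low library of screen 2 and 6 without that of screen 3.

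Of 29 heat shock proteins and cofactors, 5 were higher and 4 lower. The 6-library fit also called 5 and 4 with all libraries, but 4 and 0 without the low library of screen 2 and 2 and 0 without that of screen 3. HSPA8 (HSC70), the constitutive HSP70, had 1196 and 1184 scaled reads in high and 152 and 99 in low, a log2 fold change of 3.25 ± 0.12 (limma adjusted p = 5.1e-08). On the other side were HSF1, the transcription factor of the heat shock response, at −0.74 and HSPA5, the HSP70 of the endoplasmic reticulum, at −0.67. In the list of the chaperonin TRiC, 9 of 18 were higher (PFDN2, 2.49; CCT2, 1.08) and 2 lower, VBP1 at −0.42 and PDCL. PDCL, a cochaperone that helps TRiC fold G protein beta subunits, had 608 and 699 scaled reads in high and 1899 and 1932 in low (−1.54 ± 0.11, limma adjusted p = 2.3e-06).

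The subunits of the pathway that Kinprola_PKA reads also took opposite sides. PRKACA, the main catalytic subunit of PKA, had 561 and 642 scaled reads in high and 1765 and 1966 in low (−1.60 ± 0.11, limma adjusted p = 1.5e-06). GNAS, the stimulatory G protein, and the adenylyl cyclase ADCY7 were lower at −1.31 and −1.06, and 0 of the 16 genes of that list were higher. Regulatory subunits differed by type: PRKAR1A had 2302 and 2569 in high and 1118 and 1017 in low (1.16 ± 0.12, limma adjusted p = 4.4e-05), while PRKAR2A had 1379 and 1377 in high and 1960 and 1966 in low (−0.62 ± 0.16, limma adjusted p = 0.032). PRKAR2A was not called by the 6-library fit (limma adjusted p = 0.110). Of the 23 regulatory subunits, inhibitors and phosphodiesterases, 2 were higher and 2 lower (8.7% each) and 19 were not called, and the other two calls were the phosphodiesterase PDE4A, higher at 0.52, and the PKA inhibitor gene PKIG, lower at −0.66. Of 15 G protein beta and gamma subunits and assembly factors, 1 was higher and 3 were lower. GNB1 had 1905 and 2108 in high and 1004 and 1112 in low (0.97 ± 0.11, limma adjusted p = 8e-05), and GNB2 had 1029 and 924 in high and 1600 and 1451 in low (−0.64 ± 0.11, limma adjusted p = 0.0022). No library of one population overlapped with the other for either gene, and without the low library of screen 2 the 6-library fit called neither (limma adjusted p = 0.0504 and 0.0570). GRK2 and ARRB2, which desensitize receptors, were higher at 0.92 and 0.53. Of 18 genes of the other alpha subunits and RGS proteins 1 was higher and 1 lower (5.56% each), near the share of all genes, namely ARHGEF1 at 0.90 and GNA13, which activates it, at −1.03.

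Of the 2 complexes of the kinase mTOR, which acts in nutrient signaling, the genes that define them were called on opposite sides, with small values for mTORC2. RPTOR, which defines mTORC1, had 1081 and 1401 scaled reads in high and 329 and 286 in low (2.01 ± 0.12, limma adjusted p = 7.6e-07), and MTOR, its activator RHEB and its substrate RPS6KB1 were higher at 1.08, 0.87 and 0.64. RICTOR and MAPKAP1, which define mTORC2, were lower at −0.54 and −0.57. When 1 library was left out of the 6-library fit, RICTOR ranged from −0.58 to −0.50, MAPKAP1 from −0.71 to −0.43 and RPS6KB1 from 0.49 to 0.79. PIK3CA was lower at −1.27 ± 0.11 (limma adjusted p = 1.2e-05). The 6-library fit did not call PIK3CA without the low library of screen 2 or 3. The Rag GTPases and Ragulator that recruit mTORC1 were higher in 5 of 18 and lower in 0. Inhibitors of the pathway were higher in 1 and lower in 7 of 15, among the latter STK11 (−0.72), TSC1 (−0.64), TSC2 (−0.62) and NPRL2 (−0.54). The 6-library fit called 7 of the 15 inhibitors lower with all libraries, 0 without the low library of screen 2, 1 without that of screen 3 and 3 without the high library of either screen. It called 4 of the Rag list higher with all libraries and 1 without the low library of either screen.

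The largest value of any gene was that of FZR1, a coactivator of the anaphase-promoting complex (APC/C), a ubiquitin ligase of the cell cycle. FZR1 had 2426 and 2164 scaled reads in high and 117 and 116 in low, a log2 fold change of 4.15 ± 0.12 (limma adjusted p = 8.4e-09). Of 16 core subunits and E2 enzymes of the APC/C 7 were higher and 0 lower, led by ANAPC10 at 1.68, and the 6-library fit called 6 with all libraries and 3 without the low library of screen 3. Phosphatase lists were mixed: of 19 genes of PP1, PP4 and PP6, 6 were higher and 4 lower, with the catalytic PPP6C (1.15), PPP4C (0.90) and PPP1CA (0.53) higher and the PP1 regulators PPP1R7 (−0.75) and PPP1R2 (−0.55) lower. It was 6 higher and 1 lower in the 6-library fit with all libraries and 3 and 1 without the low library of either screen.

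Mitochondrial import and protease genes were higher in 14 of 27 and lower in 1 (TIMM44, 1.46; TOMM40, 1.37; CHCHD4, −0.42), and the 6-library fit called 14 higher with all libraries and 8 without the low library of either screen. Of the respiratory chain, complexes II to V had 12 of 44 higher, among them all 4 subunits of succinate dehydrogenase (0.64 to 0.80), and complex I had 1 of 50. In the 6-library fit the count for complexes II to V was 9 with all libraries, 3 without the low library of screen 2, 4 without that of screen 3 and 6 without the high library of screen 2. Of 20 glycolysis and glucose uptake genes 6 were higher, with PKM at 2.66 and ENO1 at 1.79, and the 6-library fit called 5 with all libraries and 3 without the low library of either screen or the high library of screen 3. The V-ATPase, which acidifies lysosomes, was higher in 8 of 22, but the 6-library fit called 3 with all libraries, 7 without the low library of screen 2 and 1 without that of screen 3. FECH, which inserts iron into heme, was the 1 call of 12 heme synthesis genes, with 2111 and 2412 scaled reads in high and 382 and 286 in low (2.87 ± 0.15, limma adjusted p = 2.8e-07). ABCC1, a drug efflux transporter, was likewise the 1 call of 8 ABC transporters, at 1.51 ± 0.11 (limma adjusted p = 3.6e-06).

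**Figure D4:**
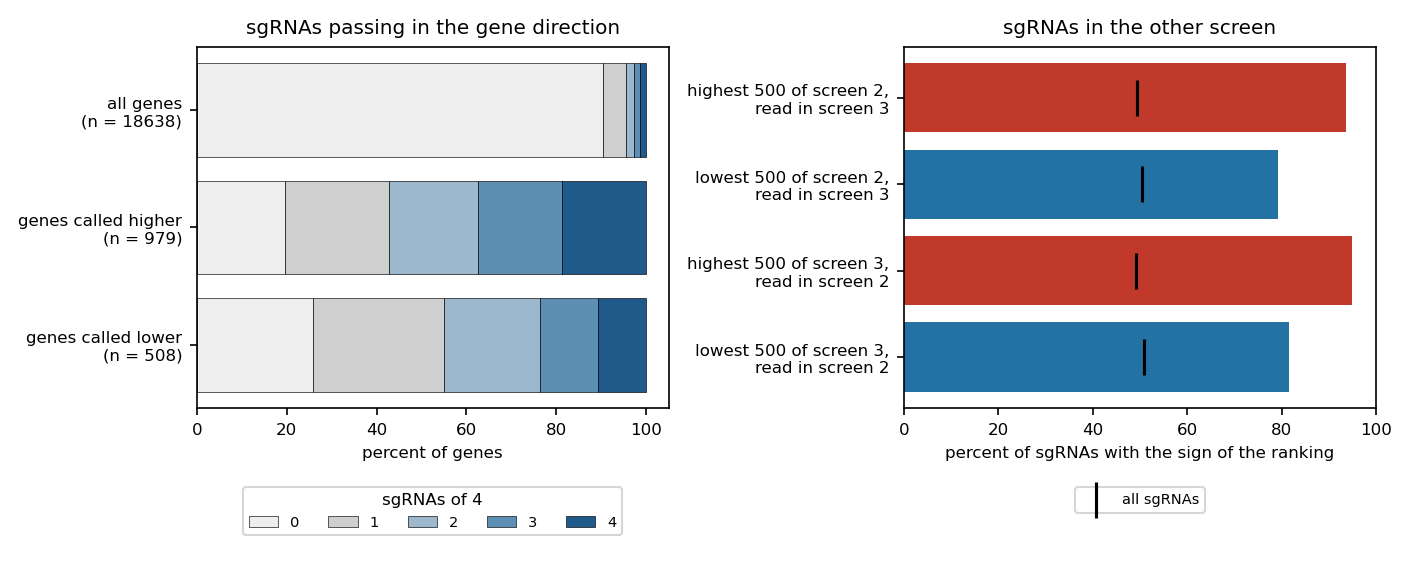
Left, percent of genes by the number of their 4 sgRNAs that passed the edgeR sgRNA test in the direction of the gene, for all genes and for genes called higher or lower. Right, percent of sgRNAs with the sign of the ranking in the screen not used for ranking, for the 500 highest (red) and 500 lowest (blue) genes of each screen, with all sgRNAs marked in black; the highest genes are at 93.7% and 94.9% and the lowest at 79.3% and 81.6%.

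The sgRNAs of a gene were compared next. The sign of all 4 matched that of the gene mean in 25.7% of all genes, in 88.4% of genes called higher and in 89.6% of genes called lower. These shares describe the genes that the same values had called. A reading free of that choice was to rank genes in one screen and to look at their sgRNAs in the other. Of the sgRNAs of the 500 highest genes of screen 2, 93.7% were positive in screen 3, and 94.9% in the reverse direction, where 49.4% and 49.1% of all sgRNAs were positive. Of the sgRNAs of the 500 lowest genes, 79.3% and 81.6% were negative, where 50.5% and 50.9% of all sgRNAs were. All 4 sgRNAs kept the sign in 409 and 416 of the 500 highest genes but in 267 and 282 of the 500 lowest.

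By the test of single sgRNAs (edgeR, Benjamini-Hochberg adjusted p under 0.05), 2192 of 74312 tested sgRNAs against genes were higher and 1154 lower. Of the 979 genes called higher, 184 had all 4 sgRNAs passing in that direction, 183 had 3, 194 had 2, 226 had 1 and 192 had 0. For the 508 genes called lower these numbers were 54, 66, 109, 148 and 131. The share with 2 or more was 57.3% and 45.1%, and rose to 84.7% and 86.4% among genes beyond a log2 of 1 in either direction. There were 0 genes with sgRNAs passing in both directions. The median SD between the 4 sgRNAs was 0.199 for all genes, 0.399 for genes called higher and 0.291 for genes called lower. The numbering of the sgRNAs in the library made little difference: among genes called higher at a log2 of 1 or more, sgRNAs 1 to 4 had medians of 1.57, 1.51, 1.42 and 1.45, and each was the weakest of the 4 in 20.3% to 28.1% of genes.

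The share of sgRNAs passing alone differed between lists. It depends on effect size and reads as well as on agreement of the sgRNAs of a gene. Of 228 tested sgRNAs of large subunit assembly factors 146 passed as lower, and of 76 of the Mediator head, middle and scaffold 67 passed as higher. The median log2 fold changes of these lists were −1.17 and 1.85, against −0.23 for the list described next. Of 155 of the endoplasmic reticulum translocation and glycosylation list, which holds SEC61, the signal recognition particle and the membrane insertase EMC, 50 passed as lower and 0 as higher. EMC3 led it, with 805 and 689 scaled reads in high and 2051 and 1995 in low (−1.45 ± 0.11, limma adjusted p = 3.3e-06), and SEC61G and SEC61A1 were at −1.25 and −1.17, each with 4 of 4 sgRNAs passing. Of its 39 genes 18 were lower, and 1, SRP9, was called higher at 0.77. SRP9 had 296 and 251 scaled reads in high and 364 and 365 in low, so that its summed reads pointed the other way and 2 of its 4 sgRNAs had the sign of its mean. The 6-library fit called 16 of the list lower with all libraries and 7 without the low library of screen 3, at medians of −0.23 and −0.32.

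In 106 called genes, 65 higher and 41 lower, 1 sgRNA decided the call, in that the mean of the other 3 was under 0.25 in the direction of the gene. In 75 of these 0 sgRNAs passed alone. TUT1, a uridylyl transferase, was called higher at 0.92, but its sgRNAs 2, 3 and 4 were at 0.02, 0.03 and 0.11 and sgRNA 1 was at 3.54, with 55.8 and 74.7 scaled reads in high and 3.20 and 6.58 in low. LYSMD3 was called lower at −0.88 through sgRNA 4, which had 0 reads in both high libraries and 5.34 and 21.9 scaled reads in the low ones, while its other sgRNAs were between −0.08 and 0.13. The others with the largest means were PSMA4, RPS27, AGAP6, PRC1, CDC73, NBPF10, H2BC18 and ERMP1. Each of these 10 genes lost its call under at least 1 alternative setting. The reverse also occurred. SMG6, a nuclease of nonsense-mediated decay, was at 3.43 with sgRNAs at 6.13, 3.34 and 4.19 and 1 sgRNA at 0.05 in spite of 296 to 385 scaled reads per library. USP24, named here after its values were seen, had sgRNAs at 0.78, 0.67 and 0.72 and was not called (−0.10, limma adjusted p = 0.84), and its sgRNA 4 was at −2.57 with 0 to 35.2 scaled reads. In all, 19 genes had a passing sgRNA opposite to the sign of their mean, and limma called 0 of these genes.

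**Figure D5:**
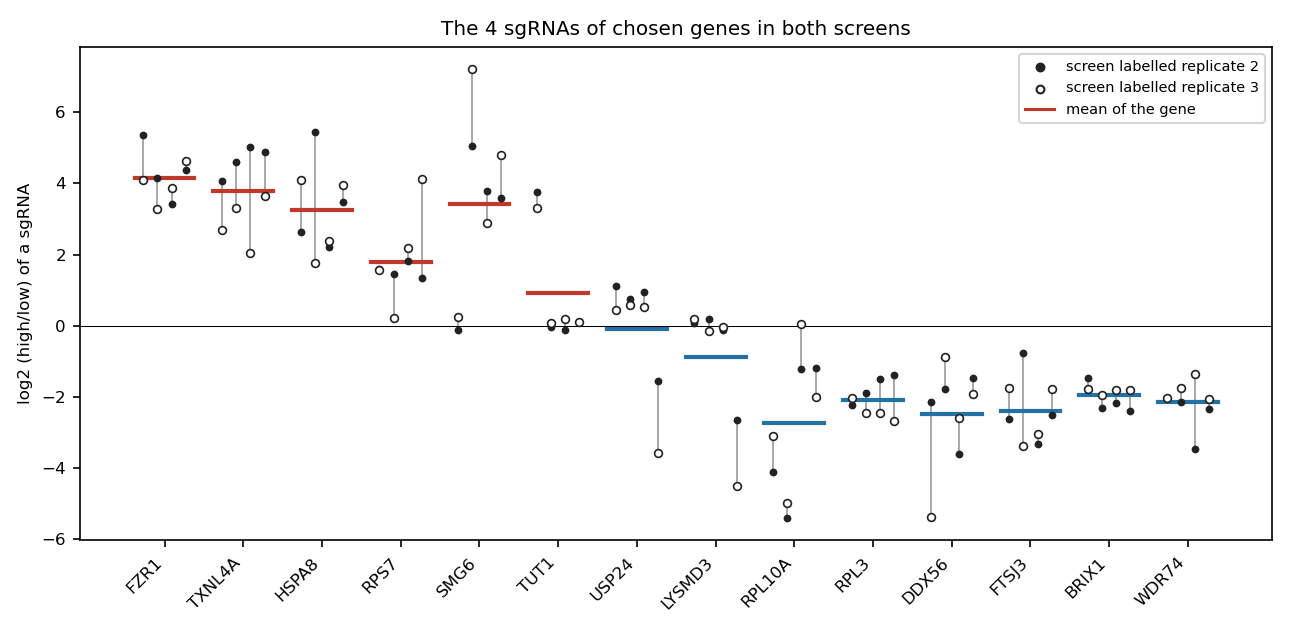
Log2 fold change of high over low (y axis) of each of the 4 sgRNAs of 14 genes in the screens labelled replicate 2 (filled) and replicate 3 (open), with the mean of the gene as a line (red above 0, blue below). All 4 sgRNAs of FZR1, TXNL4A, RPL3 and BRIX1 lie on 1 side of 0, while 1 sgRNA sets the mean of TUT1 and LYSMD3 and that of USP24 is pulled below 0.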

How the data were processed

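The deposited table holds raw counts of each sgRNA in each lane, which the authors obtained with MAGeCK 0.5.9.4 and left unnormalized. The submitters' processing notes also name limma. An aligner and a genome build are not given in the sources used here. Another 4 columns of the deposited table match no sample and stayed out. Reads were summed over the 4 lanes. The gene test was limma 3.58.1 (lmFit, eBayes) on the 2 within-screen log2 fold changes (pseudocount of 1 read), adjusted over 18638 genes and 21 control entries. The sgRNA test was the edgeR 4.0.16 quasi-likelihood test on 6 sorted libraries with the screen as a block, after its filter on low counts, which left 240 sgRNAs against genes untested. DESeq2 1.42.0 served as an alternative. The screens are independent, so pairing within a screen is by construction. Deviations of same-numbered libraries correlated at 0.104 for high and low, 0.136 for high and medium and 0.140 for low and medium. Both tests were tried on simulated counts. Lists are described by counts and medians, with no set test. The change since T0 weights high, medium and low reads by 0.25, 0.5 and 0.25. Names are from GENCODE release 44 (GRCh38), and 29 listed symbols were not found in the table. The comparison, members and lists were chosen with earlier results of these data known. The genes named are the 20 largest called values each way with the same sign in both screens, up to 6 called members per list and direction, every member of lists of 12 or fewer, the called genes with all 4 sgRNAs passing (10 each way) and the 10 largest decided by 1 sgRNA; others are marked as named after their values were seen. The reads carried no molecular identifiers, so p-values cover these 2 screens and not molecules. Python 3.11.15 drew the figures. Results of some genes are not reported here.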

Additional observations from a re-analysis of the deposited data

How the results depend on the processing

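Genes called higher numbered 979 in the main limma test and 728 to 1275 under the alternatives that kept all libraries. The count of genes called lower, 508, depended more on the setting. It was 281 when values were centred on sgRNAs without a target, 787 when the spread was fitted with a trend on reads, 932 with edgeR and 783 with DESeq2 on summed reads. In limma on the 6 sorted libraries it was 383 with the replicate block and 336 without, beside 829 and 728 higher. Leaving out the low library of screen 2 or 3 gave 506 or 496 genes higher and 136 or 161 lower, and leaving out the high library of screen 2 or 3 gave 661 or 671 higher and 258 or 301 lower. For sgRNAs, 2192 higher and 1154 lower became 1556 and 632 with DESeq2, and 1314 to 1472 and 468 to 761 without 1 library. Without the replicate block edgeR called 1770 and 783.

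Differences between module medians kept their sign where they were above 0.5. Small against large ribosomal subunit stood at 1.46, and was 1.20 with a pseudocount of 5 reads, 1.29 with sgRNAs of at least 50 reads, 1.36 with the median over sgRNAs and 1.52 to 1.53 without 1 screen. eIF3 against eIF2 and eIF5 stood at 1.81 and was 1.40 and 1.50 under the first 2 of these. eIF4F against eIF2B stood at 0.65 and was 0.62, 0.63, 0.74 and 0.62 to 0.65 in the same order. RNA polymerase II against I stood at 2.28 and was 2.03 with 5 reads added and 2.12 to 2.32 without 1 screen. LSM2 to LSM8 against LSM1 and decapping stood at 2.98, and was 2.33 and 2.65 to 2.78. TIP60 against SRCAP was 0.82 to 0.89 without 1 screen, and Ragulator against the mTORC1 inhibitors was 0.66 with the median over sgRNAs. Small differences in mitosis turned sign. Kinetochore against kinase genes was −0.13 with sgRNAs of at least 50 reads, and spindle against kinase genes was −0.15 there, −0.13 with the median and −0.17 to 0.020 without 1 screen. LYSMD3 turned to 0.027 with sgRNAs of at least 50 reads, 0.039 with edgeR and 0.041 with DESeq2, and PRC1 to −0.036 with sgRNAs of at least 50 reads. Of 713 alternative values for 51 named genes, 648 kept direction and call, 61 in 16 genes kept the direction and lost the call, and 4 reversed. The cause of these changes was not tested.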

Other observations

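Further groups were assembled after the values were seen, and are given as counts with no test. The URI prefoldin-like complex, a cochaperone assembly known to help build RNA polymerases, was called higher in all 7 genes, at a median of 2.03. PDRG1 was at 2.53, PFDN2 at 2.49, URI1 at 2.18, RPAP3 at 2.03 and UXT at 2.02, and each of the 7 genes had 2 or more sgRNAs passing. Genes for the transcription and processing of replication-dependent histone mRNAs were higher in 6 of 7, with NPAT at 1.59, HINFP at 1.51, LSM11 at 1.47 and SLBP at 1.05, while ZNF473 was at 0.09. Of 7 genes of the complex of the phosphatidylinositol 4-kinase PI4KA 3 were higher and 0 lower, at a median of 0.48, namely PI4KA at 1.57 and its partners TTC7A and HYCC2 at 1.76 and 1.75. Of 7 genes for transcription of small nuclear RNA genes 4 were higher and 0 lower, at a median of 0.76, with BRF2, a factor of RNA polymerase III there, at 2.54. Of 12 SR splicing proteins 4 were higher, SRSF7, SRSF2, SRSF1 and SRSF11, at 1.96, 1.81, 1.55 and 0.86. The ubiquitin ligase UBR4 and its partner KCMF1 were both lower, at −0.83 and −0.92.

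Families of near-identical gene copies stood apart in how their calls arose. Of 59 genes of the NBPF, NPIP, GOLGA6 and GOLGA8, AGAP, USP17L and PRAMEF families, 22 were higher and 0 lower, at a median of 0.23. In 18 of these 22 calls at most 1 sgRNA passed alone. The NBPF family had 7 of 11 higher, the NPIP family 3 of 4 and the GOLGA6 and GOLGA8 families 7 of 16, while the AGAP family had 1 of 8, the USP17L family 1 of 7 and the PRAMEF family 3 of 13. The median log2 changes since T0 were −0.54, −1.56, −0.61, −0.94, 0.0049 and 0.039 in that order, against 0.04 over all genes. sgRNAs against such copies can cut at several sites, so that values of single members are uncertain, and the part of that in these calls was not tested.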
